A study of Marchantia polymorpha and Arabidopsis thaliana and Oryza sativa Japonica Group with 116 samples.

Results

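Rice loci whose transcripts stood highest after 2 h of salt were described in wild-type and G-protein mutant seedlings. The members were 150 of the 37852 loci in the rice count table. They were chosen by their values in the wild type, labelled NB. Levels are given in CPM, a locus's count scaled to a common library total, and were averaged over 3 NB libraries at 0 h, 3 at 2 h and replicates 1 and 2 at 24 h. Of the loci, 17611 had a mean of at least 5 CPM in 1 of these groups, 9 listed loci were set aside, and the remaining 17602 were ranked. The score was the smaller of the log2 ratio of 2 h over 0 h and that of 2 h over 24 h, with 1 CPM added to each mean, and the 150 highest scores were kept. NB values are therefore a description without a test, and tests were made only in xlg1,4, which the choice did not use.

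RNA was sequenced from rice seedlings (Oryza sativa Japonica Group) aged 7 days, grown on plates of diluted MS medium with 16 h of light and 8 h of dark. NB and xlg1,4 were each taken before salt (0 h) and 2 h and 24 h into a treatment with 100 mM NaCl, which makes 6 groups. By its name, xlg1,4 is a mutant of extra-large G-protein alpha-subunit genes. The labels give no allele, no parent line and no count of lines for it, and the targeted genes were not analysed here. Each group had 3 labelled libraries, and 17 of the 18 held counts (9 NB and 8 xlg1,4). The 0 h seedlings were the only controls. With no untreated group at 2 h or 24 h among these samples, salt, elapsed time, time of day and handling cannot be told apart. The labels do not say that replicates came from separate batches of plants, so p-values measure the spread between these libraries, which may be technical. In whole seedlings, fewer cells of a type and less RNA per cell cannot be told apart.

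Salt reaches plants as an osmotic stress within minutes and as an ionic stress as sodium builds up over hours to days. The early response runs through calcium signals, reactive oxygen, abscisic acid and kinase cascades, and many of the transcripts it raises are short-lived and fall back while the stress goes on. Extra-large G proteins join a domain like a G-protein alpha subunit to a plant-specific extension and take part in plant stress and hormone signalling. The files do not pair rice identifiers with gene names, so members are given by identifier, with no role or sequence, and the seedling label was not checked against tissue markers. In these identifiers the digits after Os give the chromosome.

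Total counts per library ran from 14.2 to 21.4 M. A set of 3 libraries, all labelled replicate 3, stood apart from their labelled groups. Over 16772 loci that are not members and averaged at least 5 CPM over the 17 libraries, the nearest library was of the same labelled group for 10 libraries and of another for 7: these 3 and 4 others, of which 3 were nearest to 1 of the 3. The fourth, NB 24 h replicate 2, was nearest to an xlg1,4 24 h library, of the same time. The library labelled NB 24 h replicate 3 had a mean Pearson correlation of 0.927 with the other NB 24 h libraries and 0.985 with replicates 1 and 2 of xlg1,4 at 0 h. The library labelled xlg1,4 0 h replicate 3 correlated at 0.967 with its own group and 0.981 with both xlg1,4 and NB at 2 h, and the one labelled xlg1,4 2 h replicate 3 at 0.943 with its own group and 0.985 with xlg1,4 at 24 h. At 5 loci of at least 5 CPM in the other 6 xlg1,4 libraries and under 1 CPM in the other 8 NB libraries, with limits chosen after the values were seen, the library labelled NB 24 h replicate 3 held 10.5 to 39.9 CPM. In column order, the group labelled next was among those each of the 3 resembled most, and the last column, xlg1,4 24 h replicate 3, held no counts. The cause was not tested, no library was moved to another group, and the counts of calls and the tests of single members in xlg1,4 are given with all labelled libraries and without these 3. The set without them was chosen on these data, though on loci other than the members.

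In NB, the members' scores ran from 0.57 to 4.0, with a median of 0.82. A score of at least 1 was reached by 53 members, of at least 2 by 15 and of at least 3 by 4. The smaller of the 2 changes was the one against 0 h for 93 members and the one against 24 h for 57. The median log2 ratio was 0.94 for 2 h over 0 h and 1.16 for 2 h over 24 h, against -0.00 and -0.12 over all ranked loci. Every NB 2 h library lay above every NB 0 h library for 136 members (13.7% of ranked loci), and above both NB 24 h libraries used for 145 (13.1%), an order that the choice of members favours. The 3 NB 2 h libraries were not alike: replicate 1 was the lowest of them for 86 members and for 19 of the 20 highest scores, and replicate 2 was the highest for 96. Replicate 1 also held 0.414 to 0.984 CPM at the 5 loci named above, where the other 7 NB libraries reached at most 0.277 CPM, and whether this bears on the members was not tested.

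**Figure D1:**
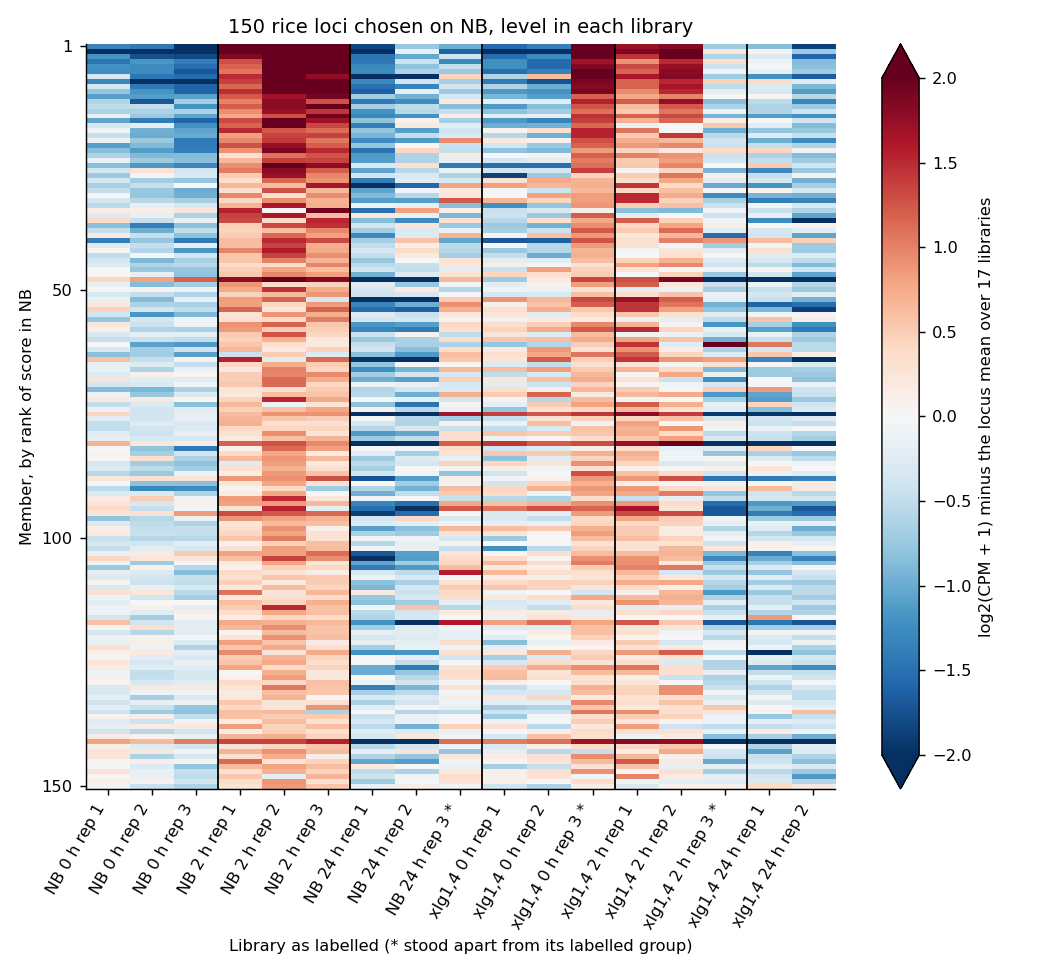
Level of each of the 150 members (rows, by rank of the NB score) in each of the 17 rice libraries (columns, as labelled), as log2(CPM + 1) minus the locus mean over the 17 libraries, with a colour scale that ends at -2 and 2. The NB 2 h columns are high by the choice of members; among xlg1,4 columns, 2 h replicates 1 and 2 and the library labelled 0 h replicate 3 are high, and the library labelled 2 h replicate 3 is low. Asterisks mark the 3 libraries that stood apart from their labelled groups.

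The highest score, 4.0, belonged to Os01g0644200. It stood at 1.00, 0.839 and 0.242 CPM in the NB 0 h libraries, at 24.4, 40.1 and 36.4 CPM at 2 h, and at 0.398 and 1.94 CPM in replicates 1 and 2 at 24 h. The 2 h libraries were far above all others and the 0 h and 24 h libraries overlapped. For Os03g0168100, on chromosome 3, the NB values were 0.369, 1.10 and 1.21 CPM at 0 h, 37.5, 90.04 and 86.0 CPM at 2 h, and 0.730 and 6.70 CPM at 24 h. Its log2 ratio of 2 h over 0 h, 5.25, was the steepest among these 20 members. Os11g0451700 stood at 2.53, 1.41 and 1.33 CPM at 0 h, at 28.3, 52.4 and 52.0 CPM at 2 h, and at 1.99 and 2.99 CPM at 24 h. It too was back within the range of its 0 h values in replicate 1 at 24 h and above it in replicate 2.

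The next 7 scores, from 3.16 to 2.64, belonged to Os05g0151200, Os04g0610600, Os11g0181200, Os01g0705200, Os05g0381400, Os03g0723400 and Os10g0548100. Among them Os01g0705200 differed in having a clear level before salt, with 18.1, 7.86 and 7.32 CPM at 0 h, 66.8, 109 and 81.8 CPM at 2 h, and 4.11 and 4.21 CPM at 24 h. Both 24 h libraries lay below all 3 at 0 h. Os06g0341300, Os02g0649300, Os05g0373900, Os02g0158900, Os03g0142600, Os03g0820500, Os01g0206300, Os12g0147200, Os02g0824500 and Os07g0638400 followed, with scores from 2.44 down to 1.81. Os03g0820500 stood at 17.03, 13.2 and 11.3 CPM at 0 h, at 91.8, 148 and 119 CPM at 2 h, and at 20.3 and 38.2 CPM at 24 h, so that it had come down at 24 h but not to its 0 h range. Os03g0142600 was at 1.21, 0.472 and 0.181 CPM at 0 h, at 3.16, 4.99 and 8.35 CPM at 2 h, and at 0 and 0.0554 CPM at 24 h, which is below every 0 h library.

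**Figure D2:**
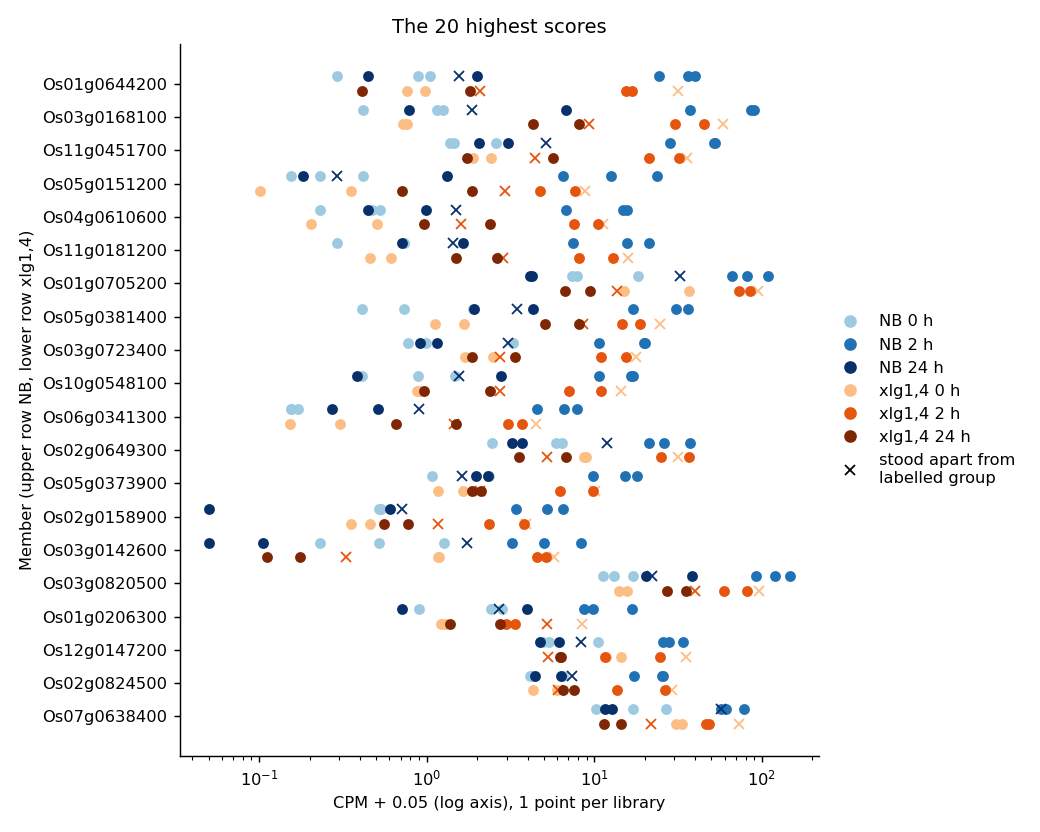
CPM + 0.05 on a log axis for the 20 members with the highest NB scores, 1 point per library, with NB in the upper and xlg1,4 in the lower row of each member. Crosses are the 3 libraries that stood apart from their labelled groups; the cross in the xlg1,4 0 h colour lies among or above the xlg1,4 2 h points, and the cross in the xlg1,4 2 h colour lies near the xlg1,4 24 h points for most members.

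At the threshold, the members just inside were Os05g0104200, Os02g0503900 and Os10g0465700, with scores of 0.577, 0.575 and 0.573. Just outside lay Os03g0850900, Os04g0634800 and Os01g0585100 with 0.572, 0.570 and 0.570, so the list ends in a dense run of nearly equal values. Os10g0465700 stood at 32.4, 24.6 and 21.8 CPM at 0 h, at 41.0, 62.0 and 50.3 CPM at 2 h, and at 31.2 and 36.8 CPM at 24 h. Of the 9 loci set aside, 6 would have scored above the threshold, and Os11g0454000, with a score of 4.14, would have ranked first.

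How far NB members had come back at 24 h varied. The 24 h mean of replicates 1 and 2, with 1 CPM added, was within 2-fold of the 0 h mean for 122 members, more than 2-fold below it for 23 and more than 2-fold above it for 5. The 2 h mean was itself at least 2-fold above 0 h for only 63 members. The score also keeps 24 h below 2 h, so these counts follow in part from the choice of members. The NB libraries at 24 h used by the score had member medians of 2.59 and 2.98 on the log2(CPM + 1) scale, and the 3 at 0 h ran from 2.99 to 3.14. The library labelled NB 24 h replicate 3, which the score left out, had a median of 3.65. It lay above both other NB 24 h libraries for 105 members, where 32.9% of ranked loci did the same, and below every NB 2 h library for 107, an order shown by 29.3% of ranked loci.

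In xlg1,4, the libraries labelled replicate 3 differed from replicates 1 and 2 of the same time in the members' median. On the log2(CPM + 1) scale they were 3.40 and 3.59 in replicates 1 and 2 at 0 h, and 4.36 in the library labelled 0 h replicate 3. At 2 h they were 4.06 and 4.11 in replicates 1 and 2, and 3.06 in the library labelled replicate 3. At 24 h they were 3.14 and 2.92. Replicates 1 and 2 thus showed the members highest at 2 h, while the labelled replicate 3 was high at 0 h and low at 2 h.

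**Figure D3:**
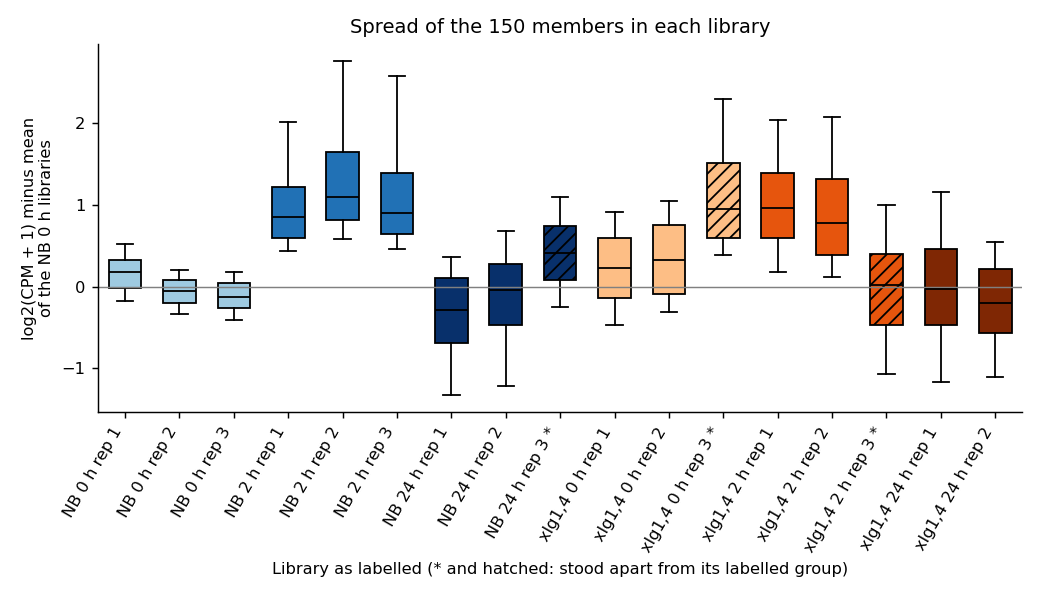
Distribution over the 150 members of log2(CPM + 1) minus the mean of the NB 0 h libraries, 1 box per library; boxes span the quartiles with the median as a line, whiskers end at the 10th and 90th percentiles, and hatched boxes are the 3 libraries that stood apart from their labelled groups. NB 2 h, xlg1,4 2 h replicates 1 and 2, and the library labelled xlg1,4 0 h replicate 3 are the high boxes.

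With all labelled libraries, none of the 150 members was called in xlg1,4 between any 2 times (edgeR quasi-likelihood test, Benjamini-Hochberg adjusted p under 0.05), and none of the 25482 loci tested was called either, a background of 0%. At 2 h against 0 h the members' median log2 change was 0.04, against 0.01 over all loci, with 4 members higher and 2 lower at an unadjusted p under 0.05 (3.57% and 4.7% of all loci), and DESeq2 called 0, beside 0% of all loci higher and 0.0392% lower. At 24 h against 2 h the median was -0.89, 58 members were lower and 2 higher at an unadjusted p under 0.05 (7.4% and 6.6% of all loci), and DESeq2 called 1 lower and gave no adjusted p for 25, with 0.0235% of all loci called lower. At 24 h against 0 h the median was -0.85, 66 members were lower at an unadjusted p under 0.05 and none higher (14.3% of all loci each way). DESeq2 called 36 of the 150 members lower and 0 higher, beside 5.9% and 6.84% of all loci, and a fit of only the 0 h and 24 h groups called 52 of the 150 lower, beside 5.05%. All 3 libraries labelled 2 h lay above all 3 labelled 0 h for 0 members, while 10.2% of ranked loci showed that order.

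Without the 3 libraries, 14 libraries remained, 2 in each xlg1,4 group. At 2 h against 0 h, 32 of the 150 members rose (21.3%, against a background of 0.509% of 25517 loci called higher) and none fell, where the background of lower calls was 0.803%, 1 member was lower at an unadjusted p under 0.05 (8.87% of all loci, with 7.07% higher) and DESeq2 also called no fall. The members' median log2 change was 0.53, from -1.16 to 5.69, beside 0.00 over all loci. At 24 h against 2 h, 94 members fell (62.7%, background 9.48%), none rose (background 11%; 0 at an unadjusted p under 0.05, beside 17.5% of all loci, and 0 by DESeq2), and the median was -1.09. A rise at 2 h together with a fall at 24 h was called for 26 members (17.3%), and for 0.231% of all loci. Leaving out the library labelled xlg1,4 2 h replicate 3 alone gave 37 members lower at 24 h than at 2 h. The share of all loci called lower in that fit was not counted, so this number has no background beside it. Both 2 h libraries lay above both 0 h libraries for 93 members (32.1% of ranked loci), above both 24 h libraries for 123 (31.4%) and above all 4 for 82 (12.2%).

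The share of members called was larger among the highest NB scores. Of the 20 highest, 15 rose at 2 h in xlg1,4 without the 3 libraries, 19 fell between 2 h and 24 h, and 15 did both. The shares of all loci tested were 0.509%, 9.48% and 0.231%. With all labelled libraries, none of the 150 members was called. Of the other 130, 17 rose at 2 h and 75 fell at 24 h. The median log2 change in mean CPM at 2 h over 0 h was 2.05 in the former and 0.44 in the latter, and 0.42 and 0.01 with all labelled libraries. The difference between these sets of members was not tested.

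Os01g0644200 stood at 0.713 and 0.924 CPM in xlg1,4 replicates 1 and 2 at 0 h, at 15.4 and 16.7 CPM at 2 h, and at 1.76 and 0.364 CPM at 24 h. The libraries labelled replicate 3 held 31.5 CPM at 0 h and 2.04 CPM at 2 h, the reverse order. Its log2 change at 2 h against 0 h was 4.21 ± 0.55 (SE, n = 2 and 2, edgeR adjusted p = 0.0038) without the 3 libraries and 0.02 ± 0.98 (adjusted p = 1) with all. For Os03g0168100 the values were 0.713 and 0.668 CPM at 0 h, 30.5 and 45.0 CPM at 2 h, and 8.11 and 4.25 CPM at 24 h, with 58.8 and 9.29 CPM in the libraries labelled replicate 3 at 0 h and 2 h. Without the 3 libraries its log2 change was 5.69 ± 0.77 at 2 h against 0 h (edgeR adjusted p = 0.0052) and 3.08 ± 0.85 at 24 h against 0 h (edgeR adjusted p = 0.016), with both 24 h values above both 0 h values. With all labelled libraries neither was called, at 0.47 ± 1.08 for 2 h (edgeR adjusted p = 0.91) and, with the sign turned, -1.72 ± 1.33 for 24 h (edgeR adjusted p = 0.4).

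Among the top 20, 3 members with clear levels at 0 h in xlg1,4 were not called at 2 h. Os01g0705200 stood at 14.97 and 36.5 CPM at 0 h, at 72.8 and 85.0 CPM at 2 h and at 9.43 and 6.61 CPM at 24 h, and its 2 h change of 1.56 ± 0.39 missed the threshold (edgeR adjusted p = 0.067) while its fall to 24 h of -3.30 ± 0.44 passed (edgeR adjusted p = 0.00019). These were 0.19 ± 0.77 and -2.83 ± 0.99 (edgeR adjusted p = 0.95 and 0.33) with all labelled libraries. Os07g0638400 had 33.3 and 30.8 CPM at 0 h, 48.7 and 46.1 CPM at 2 h, and 14.3 and 11.5 CPM at 24 h. It fell after 2 h (-1.88 ± 0.30, edgeR adjusted p = 0.00082), and its 24 h level was below its 0 h level (-1.38 ± 0.30, edgeR adjusted p = 0.0044). Neither call was made with all labelled libraries, at -1.58 ± 0.65 and -1.88 ± 0.66 (edgeR adjusted p = 0.33 and 0.089). Os12g0147200 was at 11.8 and 14.5 CPM at 0 h and at 24.7 and 11.5 CPM at 2 h, overlapping ranges, with a 2 h change of 0.40 ± 0.32 (edgeR adjusted p = 0.58), or -0.62 ± 0.46 with all labelled libraries (edgeR adjusted p = 0.7). Os03g0142600 and Os01g0206300 were the remaining uncalled members of the 20. For Os01g0206300, the only one of the 20 with no call between any times, the values were 1.17 and 1.23 CPM at 0 h, 2.92 and 3.32 CPM at 2 h and 2.70 and 1.34 CPM at 24 h.

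Across the 3 contrasts without the 3 libraries, the most frequent outcome among members was a fall from 2 h to 24 h to below the 0 h level with no call at 2 h against 0 h, in 48 members, beside 6.38% of all loci tested. No call at all was made for 46, beside 67.4%. A fall after 2 h with neither other contrast called was found in 20, beside 2.77%. A rise, a fall and no call between 24 h and 0 h were found in 16, beside 0.137%, of which 9 were among the 20 highest scores. With 2 libraries per group, a missing call does not show a return to the 0 h level. Os05g0151200, 1 of the 16, had a change of 2.68 ± 1.13 at 24 h against 0 h (edgeR adjusted p = 0.094). Only a rise at 2 h was called for 3 members (0.0353%), only a lower 24 h than 0 h level for 3 (6.14%) and only a higher one for 1 (5.34%). At 24 h against 0 h, 10 members were higher (background 13.6% of loci) and 55 were lower (13.1%), shares of 6.67% and 36.7%, and the median change was -0.42. No member showed a pattern with any call when all labelled libraries were used.

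A group of 6 members rose at 2 h, fell by 24 h and were still above 0 h at 24 h, and all 6 were among the 20 highest scores: Os03g0168100, Os04g0610600, Os11g0181200, Os05g0381400, Os06g0341300 and Os03g0820500. Of all 25517 loci tested, 0.0235% showed this pattern, which is these 6. Their median NB log2 ratio of 24 h over 0 h was 0.75, beside -0.12 over all members. Most of these levels are low. The median over the 6 of mean CPM in xlg1,4 replicates 1 and 2 was 0.588 at 0 h and 4.1 at 24 h. Os06g0341300 had 0.255 and 0.103 CPM at 0 h and 1.45 and 0.607 CPM at 24 h in these replicates, so its call at 24 h rests on few reads. Os05g0381400 stood at 1.63 and 1.08 CPM at 0 h, at 14.7 and 18.8 CPM at 2 h and at 8.05 and 5.04 CPM at 24 h in xlg1,4. Its change at 24 h against 0 h was 2.20 ± 0.56 (edgeR adjusted p = 0.01) without the 3 libraries and, with the sign turned, -0.49 ± 0.91 with all (edgeR adjusted p = 0.75). In NB the same locus had 1.86 and 4.26 CPM in the 24 h libraries used and 1.85, 0.681 and 0.363 CPM at 0 h, so that replicate 1 lay just above the highest 0 h value.

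The next 4 members are outside the fixed naming rule and were picked after their values were seen, for their 24 h levels. They rose at 2 h and fell at 24 h to below 0 h: Os04g0352400, Os01g0767600, Os09g0526600 and Os03g0284100, a pattern of 0.0705% of all loci. Os03g0284100 stood at 33.7 and 35.4 CPM in xlg1,4 replicates 1 and 2 at 0 h, at 58.6 and 57.1 CPM at 2 h and at 0.942 and 1.27 CPM at 24 h, and its fall from 2 h to 24 h was -5.70 ± 0.19 (edgeR adjusted p = 7.8e-10), or -5.13 ± 1.60 with all labelled libraries, where it was not called (edgeR adjusted p = 0.33). The library labelled xlg1,4 2 h replicate 3 held 1.13 CPM and the one labelled xlg1,4 0 h replicate 3 held 54.1 CPM. In NB it had 28.8, 25.8 and 33.8 CPM at 0 h, 42.6, 42.4 and 48.9 CPM at 2 h, and 0.929 and 0.997 CPM at 24 h, with 36.1 CPM in the library labelled NB 24 h replicate 3. Its 24 h levels were near 1 CPM in both genotypes. Os04g0352400 had 14.2 and 27.6 CPM at 0 h, 59.6 and 90.7 CPM at 2 h and 3.83 and 3.40 CPM at 24 h in xlg1,4, and a 24 h change against 0 h of -2.59 ± 0.35 (edgeR adjusted p = 0.00015), or -3.30 ± 1.24 with all labelled libraries (edgeR adjusted p = 0.1). The 4 members had median log2 ratios of mean CPM of 1.33 in xlg1,4 and 0.74 in NB for 2 h over 0 h, and of -1.81 and -2.88 for 24 h over 0 h.

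Another 3 members rose at 2 h and were still above 0 h at 24 h. They had no call between 2 h and 24 h, a pattern of 0.176% of all loci. They were Os10g0505900 and Os06g0682900, also picked after their values were seen, and Os09g0109600, which is within the naming rule. Os09g0109600 stood at 1.94 and 2.05 CPM at 0 h, at 10.8 and 18.0 CPM at 2 h and at 13.6 and 12.2 CPM at 24 h in xlg1,4. Its 2 h and 24 h values overlapped, and the change between them was -0.15 ± 0.40 (edgeR adjusted p = 0.82), or -0.21 ± 0.76 with all labelled libraries (edgeR adjusted p = 0.91). NB held 13.4, 25.9 and 22.5 CPM at 2 h and 4.97 and 12.96 CPM at 24 h at this locus. Near the threshold, Os10g0465700 was called at 24 h against 0 h and in no other contrast in xlg1,4, where it was higher by 0.73 ± 0.23 (edgeR adjusted p = 0.027, and 0.18 for 0.49 ± 0.23 with all labelled libraries), with 25.4 and 21.9 CPM at 0 h, 27.5 and 35.5 CPM at 2 h and 44.1 and 38.6 CPM at 24 h. In xlg1,4 replicates 1 and 2 its highest values were at 24 h, and in NB at 2 h.

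**Figure D4:**
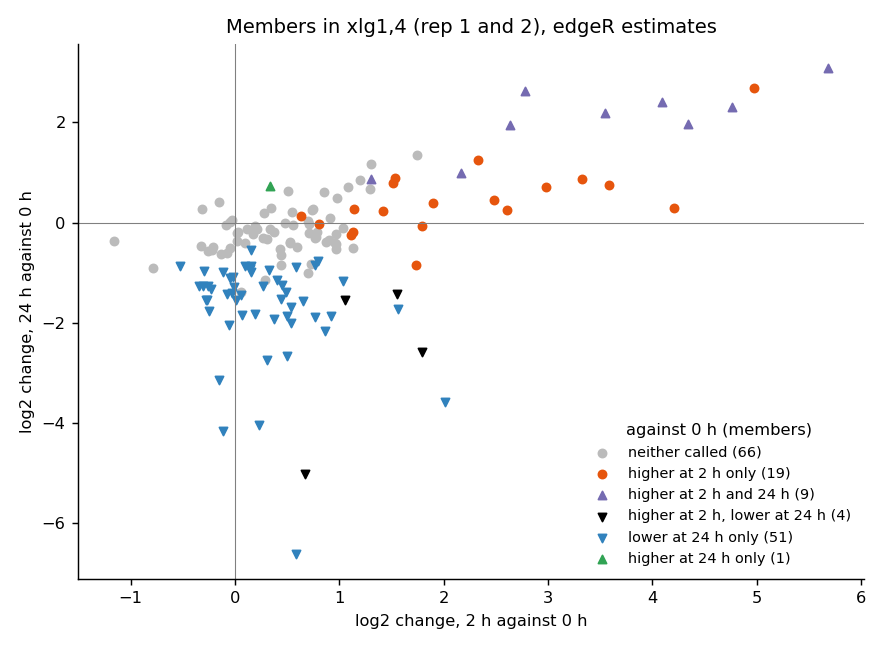
Log2 change at 2 h against 0 h (x axis) and at 24 h against 0 h (y axis) of the 150 members in xlg1,4 without the 3 libraries, 1 point per member, estimated with edgeR and marked by the calls against 0 h (adjusted p under 0.05). Of the members, 66 were called at neither time, 19 higher at 2 h and not called at 24 h, 9 higher at both, 4 higher at 2 h and lower at 24 h, 51 lower at 24 h and not called at 2 h, and 1 higher at 24 h and not called at 2 h.

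By the estimate from all labelled libraries, the 5 largest 2 h changes in xlg1,4 were those of Os04g0173800, Os05g0519700, Os09g0109600, Os06g0341300 and Os12g0441300, from 1.66 down to 0.76, with edgeR adjusted p from 0.58 to 0.78. Os04g0173800 stood at 2.55 and 3.03 CPM in replicates 1 and 2 at 0 h and at 15.5 and 4.11 CPM at 2 h, with 7.58 and 23.7 CPM in the libraries labelled replicate 3 at these times. Its values within a group spread widely, and it was not called without the 3 libraries either (1.75 ± 0.62, edgeR adjusted p = 0.18). Os05g0519700 had 1.17 and 3.70 CPM at 0 h and 10.1 and 15.4 CPM at 2 h, and rose by 2.33 ± 0.49 without the 3 libraries (edgeR adjusted p = 0.036), against 1.16 ± 0.52 with all (edgeR adjusted p = 0.59). The 5 smallest were those of Os08g0473900, Os08g0298700, Os07g0429600, Os12g0583700 and Os06g0561000, from -0.66 to -0.96, with edgeR adjusted p from 0.58 to 0.85.

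Among these 5, the xlg1,4 and NB values ran apart at 2 h for some. Both choices favour such a gap. Members were taken for high NB levels at 2 h, and these 5 for small 2 h changes in xlg1,4. The genotypes were not tested. Os07g0429600 was at 1.07 and 1.28 CPM at 0 h and at 0.573 and 0.521 CPM at 2 h in xlg1,4 replicates 1 and 2, and at 7.30, 1.91 and 9.70 CPM at 2 h in NB, where replicate 2 did not stand above the 0 h values of 2.11, 2.04 and 2.30 CPM. Os06g0561000 had 37.0 and 48.7 CPM at 0 h, 38.9 and 23.1 CPM at 2 h and 31.4 and 17.4 CPM at 24 h in xlg1,4, beside 44.8, 70.7 and 53.2 CPM at 2 h in NB. Without the 3 libraries neither was called at 2 h, with changes of -1.16 ± 1.11 and -0.53 ± 0.30 (edgeR adjusted p = 0.65 and 0.41), beside -0.76 ± 0.85 and -0.96 ± 0.43 with all (edgeR adjusted p = 0.8 and 0.59). Os08g0298700 was at 2.65 and 2.67 CPM at 0 h and at 3.80 and 5.34 CPM at 2 h, and 11.2 CPM stood in the library labelled xlg1,4 0 h replicate 3. Without that library and the other 2, its estimate turned from -0.67 to 0.70 ± 0.40 (edgeR adjusted p = 0.42).

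Side by side, the 2 h ratios were larger in NB than in xlg1,4 replicates 1 and 2. The median log2 ratio of mean CPM at 2 h over 0 h was 0.94 in NB and 0.56 in xlg1,4, and that of 2 h over 24 h was 1.16 and 1.0. The 2 h over 0 h ratio was the larger in NB for 128 members. The members were selected for a large ratio in the NB libraries, and such a choice favours a lower ratio in any other set of libraries. Selection and genotype cannot be told apart here, and no test of the genotypes was made. By level, xlg1,4 over NB had a median log2 ratio of 0.24 at 0 h, with 101 members above 0, of -0.22 at 2 h, with 45 above 0, and of 0.09 at 24 h, with 100 above 0. Over all ranked loci these medians were 0.00, 0.08 and -0.04. The medians with all labelled libraries were 0.09 for 2 h over 0 h in xlg1,4, and 0.62, -0.40 and -0.16 for xlg1,4 over NB at 0 h, 2 h and 24 h, the last with the sign turned. At least a doubling of mean CPM + 1 at 2 h over 0 h was seen for 63 members in NB and 36 in xlg1,4 replicates 1 and 2. With all labelled libraries, 2 members reached it in xlg1,4, and the 2 h over 0 h ratio was the larger in NB for 148. Across members, the 2 h over 0 h ratios of NB and xlg1,4 had a Pearson correlation of 0.83 and a Spearman correlation of 0.52 (n = 150 loci, which share their libraries), given as a description, and of 0.38 and 0.33 with all labelled libraries.

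**Figure D5:**
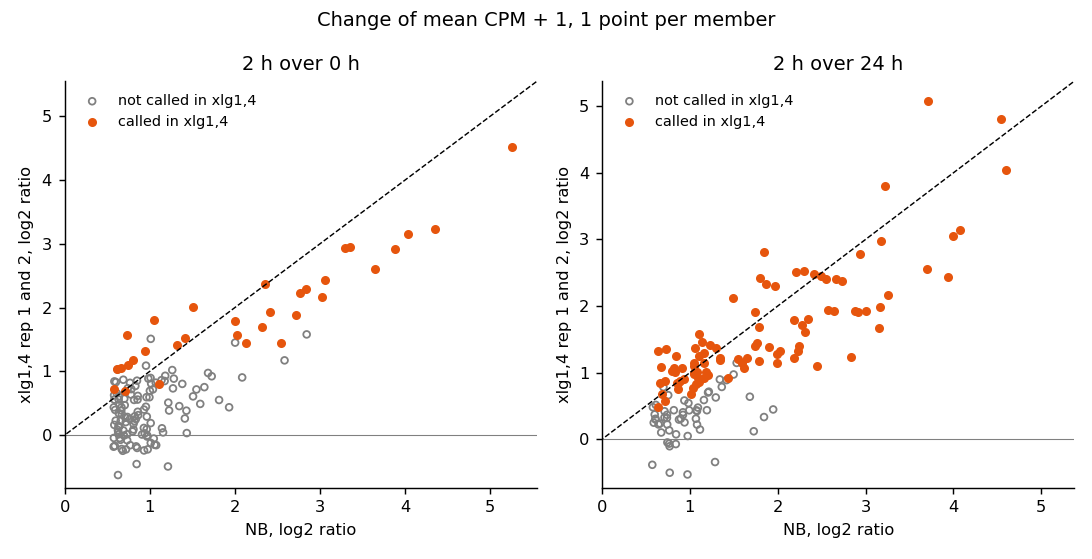
Log2 ratio of mean CPM + 1 in NB (x axis) and in xlg1,4 replicates 1 and 2 (y axis), 1 point per member, for 2 h over 0 h (left) and 2 h over 24 h (right). Filled points were called in xlg1,4 without the 3 libraries (32 left, 94 right), the dashed line marks equal ratios, and 128 points of the left panel lie on the NB side of it.

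By identifier, the members lay on all 12 chromosomes, from 6 on chromosome 8 to 23 on chromosome 3, which holds 15.3% of members and 13.7% of ranked loci. Chromosome 11 held 8.67% of members and 5.25% of ranked loci, and chromosome 8 held 4.0% and 6.66%. With the table sorted by identifier, 7 pairs of members were direct neighbours, as they also were in the deposited row order, and 9 lay within 3 rows. Os03g0377600 and Os03g0377700 were such a pair, with 4.40, 8.36 and 9.40 CPM and 26.5, 44.7 and 43.8 CPM at 2 h in NB. Both were lowest in replicate 1. Neighbours may overlap or be read from opposite strands, and whether the counting used strand is not given in the sources used here, so such pairs may not be separate measurements.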

How the data were processed

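The deposited rice table holds counts, whole-number reads per locus made by the authors, for 17 rice libraries. The submitters' processing notes name STAR and IRGSP-1.0, and the sources used here do not give the counter, annotation or use of strand. Per the labels' protocols, RNA was extracted with a Qiagen plant kit and sequenced from standard Illumina libraries. Tables of other species were not used here. Libraries were grouped by their labels. Members were found with CPM per library total. All 6 rice groups were fitted together with edgeR 4.0.16 in R 4.3.3 (filterByExpr, minimum count 10 and minimum total 15, TMM scaling, quasi-likelihood F-test, Benjamini-Hochberg adjustment over all loci tested, threshold 0.05), and 150 of 150 members passed the filter. SE is the log2 change divided by the root of F. The procedure was tested on simulated data. Alternatives were DESeq2 1.42.0, its size factors, no filter, a replicate block, fewer groups and libraries left out. Leaving out the 3 libraries that stood apart was added after the data were seen. The identifiers named were the 20 highest scores, 3 on each side of the threshold and the 5 largest and 5 smallest 2 h changes in xlg1,4, except where stated. Planned gene lists, promoter motifs and tissue markers were not used, as no rice annotation was used here. The members and the naming rule were chosen with earlier results of these data known.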

Additional observations from a re-analysis of the deposited data

Results flagged for a closer look

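Os02g0503900, a member just inside the threshold, was marked because all 3 xlg1,4 libraries labelled 2 h lay below all 3 labelled 0 h, the reverse of NB. It stood at 42.2 and 39.1 CPM at 0 h and at 36.8 and 34.6 CPM at 2 h in xlg1,4 replicates 1 and 2, a log2 ratio of -0.18. In NB it had 42.8, 41.9 and 30.2 CPM at 0 h and 50.7, 73.1 and 48.9 CPM at 2 h. The libraries labelled xlg1,4 replicate 3 held 51.8 CPM at 0 h and 33.2 CPM at 2 h. This order was not unique to Os02g0503900. Os04g0513400, a member outside the naming rule and picked after its values were seen, also had every xlg1,4 2 h library below every 0 h library. Its NB 2 h libraries all lay above its NB 0 h libraries. Os12g0583700 showed the same order as these in xlg1,4, while its NB 0 h and 2 h values overlapped. How many members or ranked loci share this order was not counted. The difference between the genotypes was not tested, since NB values chose the members.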

How the results depend on the processing

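With all labelled libraries, 0 members were called at 2 h against 0 h under every alternative set in advance. At 24 h against 2 h, 1 was called by DESeq2, and leaving out 1 xlg1,4 library at a time gave 0 to 37, the 37 without the library labelled 2 h replicate 3. At 24 h against 0 h, 36 were lower by DESeq2 and 52 in a fit of only those 2 groups. Over all loci, the 3 contrasts in the order 2 h against 0 h, 24 h against 2 h and 24 h against 0 h had 0 calls, DESeq2 gave 10, 6 and 3248, and the fit of 2 groups gave 2851 for the last. Leaving out 1 library gave 0 to 2, 0 to 1918 and 0 to 1. These counts over all loci hold calls in both directions, so they are no background for the 37 members called lower. Leaving out the 3 libraries that stood apart, chosen after seeing the data, gave 335, 5231 and 6797 calls over all loci, 878, 5532 and 6906 with DESeq2, and 275, 4797 and 6305 with a replicate block. Among members it gave 32 higher at 2 h, 94 lower at 24 h than at 2 h, and 10 higher and 55 lower at 24 h than at 0 h. DESeq2 then gave 41, 97, 13 and 56, and the replicate block 30, 93, 12 and 54. The share of all loci called in each direction was not counted for these DESeq2 and replicate block fits. Their member counts therefore have no background beside them. With all labelled libraries the replicate block called 0 members in each contrast. Deviations of same-numbered xlg1,4 libraries correlated from -0.08 to 0.31, and from -0.14 to 0.41 without the 3, so the numbers were not taken as pairs. With the library left out in turn, 36 uncalled 2 h estimates of 17 named members turned sign, and 3 did without the 3 libraries. The choice of members shared 134 with NB 24 h replicate 3 added, 135 after TMM scaling, 129 with 5 CPM added, 123 by medians and 119 to 135 with 1 NB library left out. With 2 libraries per xlg1,4 group and 14.2 to 21.4 M counts each, small changes of members near 5 CPM are weakly resolved.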
